A study of Homo sapiens with 9 samples.

Results

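The MAF oncogene programme of t(14;16) myeloma was described through 5 genes found by their symbols among the 60675 Ensembl gene IDs of the deposited count table. They are MAF, which encodes the transcription factor itself, and CCND2, ITGB7, CCR1 and NUAK1, which are described as raised by it in myeloma. All 5 matched 1 ID each, and all 5 passed the filter on low counts, which kept 15982 genes. RNA was sequenced from MM.1S cells, an established human multiple myeloma line grown in suspension culture, after 24 h with 0, 40 or 80 µM EGCG (epigallocatechin gallate, a green tea polyphenol). Each dose had 3 libraries, and the libraries at 0 µM are called the control. The 3 groups share the same line, a culture derived from 1 patient's tumour, so a difference describes this line only. The labels do not say whether the 3 libraries of a dose came from separate cultures, so p-values measure only the spread between these libraries.

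In myeloma with the t(14;16) translocation, the MAF gene comes under the control of the immunoglobulin heavy chain locus, which is highly active in plasma cells. MAF is a basic leucine zipper factor that binds DNA at MAF recognition elements, and raised MAF is known to increase cyclin D2, integrin beta7 and the chemokine receptor CCR1, which serve cell cycle entry, adhesion to marrow stroma and response to chemokines. NUAK1, also named ARK5, is a kinase of the AMPK family whose transcription large MAF factors were described to drive in myeloma. MM.1S is a line known to carry this translocation.

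The promoter of MAF is shown because all 5 genes were called lower at the higher dose. A link between this promoter and those falls was not tested. The RefSeq promoter table, on GRCh38.p14, held an entry for 4 of the 5 members. The 250 bases before the MAF start lie at chr16:79600738-79600987 on the minus strand and read, 5′ to 3′, with motif matches in capitals:
MAF: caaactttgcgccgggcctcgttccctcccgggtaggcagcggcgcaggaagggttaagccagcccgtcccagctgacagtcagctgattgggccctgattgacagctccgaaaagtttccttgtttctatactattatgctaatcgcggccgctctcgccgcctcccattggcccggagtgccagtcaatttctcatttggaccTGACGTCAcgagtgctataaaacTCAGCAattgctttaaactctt
The first capitals are the cyclic AMP response element TGACGTCA, from base -45 to -38 relative to the start, which 1.65% of 35116 promoters of the same length held. The second are a match on the other strand to TGCTGA, the outer arm of a MAF recognition element, from base -22 to -17, which 14.0% of promoters held. No match to the AP-1 element TGACTCA, found in 4.2% of promoters, was present in this window. The windows of ITGB7, CCR1 and NUAK1 held none of the 3 motifs. These windows start from RefSeq starts, which differ from the GENCODE 29 spans given below. That of NUAK1, chr12:106138955-106139204, lay wholly within its span, and those of ITGB7 and CCR1 reached into theirs. Both strands were searched and the 3 motifs were counted separately where they overlapped. A match is a description of the letters only.

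Library totals ran from 12674490 to 16427343 counts, and 99.7% or more of each library's counts fell in the tested genes. All 9 plasma cell and myeloma markers were present, with a summed level of 6397 to 6761 CPM (counts scaled to library size by the TMM method) in the control, 6108 to 6821 CPM at 40 µM and 5383 to 6170 CPM at 80 µM. Markers of mature B cells summed to 0.234 CPM or less in every library, those of stromal cells to 0.919 CPM or less and those of T and NK cells to 7.29 CPM or less. Markers of monocytes and macrophages, which also use CCR1, summed to 16.0 CPM or less, nearly all of it CD68, with LYZ and FCGR3A at or near 0. Mitochondrially encoded genes took 7.60 to 8.51% of counts in the control, 8.47 to 11.5% at 40 µM and 10.1 to 10.9% at 80 µM.

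Untreated MM.1S cells held the 5 transcripts at very different levels. Levels are compared between genes as the authors' FPKM (fragments scaled by gene length and library total), since counts grow with gene length. In the control, ITGB7 stood at 645, 646 and 810 FPKM, between rank 55 and rank 60 of the 35349 gene IDs with a count. MAF stood at 180, 182 and 165 FPKM, CCR1 at 110, 114 and 118 FPKM, and CCND2 at 46.8, 46.3 and 41.6 FPKM. NUAK1 was the lowest, at 14.8, 15.6 and 16.5 FPKM. The order ITGB7, MAF, CCR1, CCND2, NUAK1 was the same in each of the 9 libraries, and no neighbours in it overlapped within any group of libraries. This order rests on the authors' fixed lengths, such as 14185 bases for CCND2 and 2646 bases for CCR1. The same lengths were used in every library, so agreement between libraries does not test them. Without division by length, CCND2 stood above CCR1 in the control, at a mean of 638 against 304 CPM.

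By the authors' FPKM, the other genes of the myeloma translocation classes were far lower than MAF in the control. The size of this gap depends on the authors' fixed gene lengths. In counts scaled to library size, NSD2 averaged 296 CPM, CCND3 50.6 CPM and MYC 38.2 CPM, against 1809 CPM for MAF. NSD2 ranked 532 to 566 by count but 5127 to 5333 by FPKM in the control libraries. CCND2 averaged 44.9 ± 2.84 FPKM, against 1.78 ± 0.295 FPKM for CCND1 and 3.37 ± 0.860 FPKM for CCND3, the D cyclins that other translocations raise (SD, n = 3). FGFR3, the receptor raised by a translocation to chromosome 4, averaged 0.0521 ± 0.00844 FPKM, and NSD2, the histone methyltransferase of the same translocation, 5.15 ± 0.110 FPKM. WWOX, the tumour suppressor gene that spans the usual breakpoints next to MAF, stood at 0.404 ± 0.0654 FPKM. MYC, whose product drives growth, was uneven, at 1.75, 1.77 and 5.90 FPKM in the 3 control libraries. CCND1, CCND3, NSD2, WWOX and MYC did not pass at either dose against the control, MYC standing at -1.01 ± 0.59 and CCND3 at -0.63 ± 0.26 on the log2 scale at 80 µM.

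**Figure D1:**
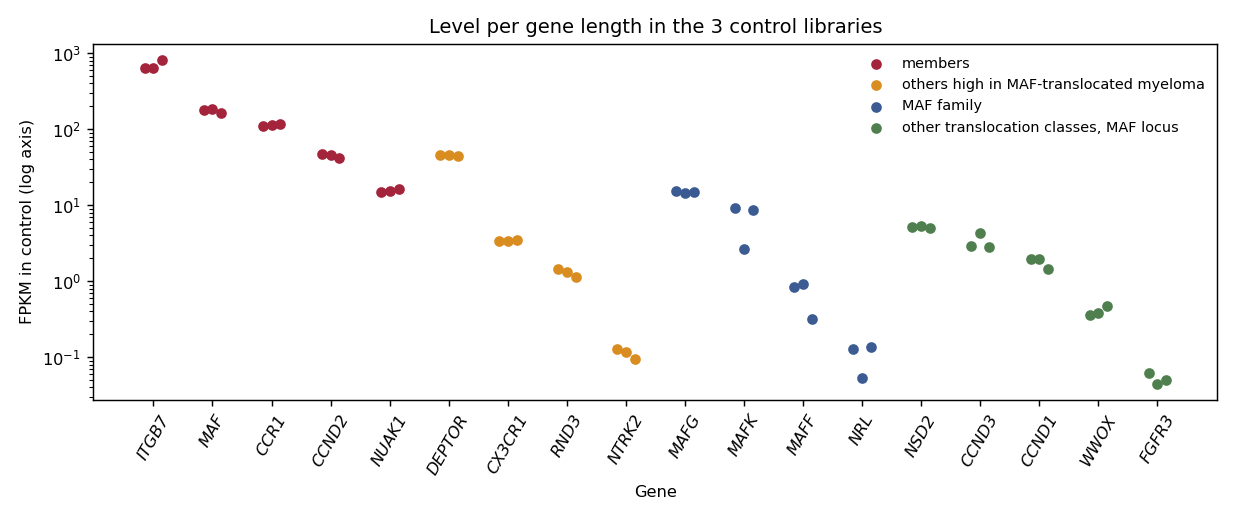
FPKM (log axis) of the 5 members, other genes high in MAF-translocated myeloma, MAF family factors and genes of other translocation classes in the 3 control libraries, 1 point per library. The members run from ITGB7 at 645 to 810 FPKM to NUAK1 at 14.8 to 16.5 FPKM, with WWOX below 0.5 FPKM.

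Comparing 80 µM with the control asks whether the higher dose changes the programme. All 5 members fell, the steepest being CCR1 and the shallowest CCND2. Of all 15982 tested genes, 34.9% were called, 17.5% lower and 17.4% higher. The members' median log2 fold change was -0.72, beside -0.0013 over all tested genes. A call is an adjusted p under 0.05 in edgeR's quasi-likelihood F test, corrected by the Benjamini-Hochberg method over all tested genes, and each adjusted p below comes from it. The 80 µM and control libraries did not overlap for any of the 5, where 25.3% of all tested genes were lower and 24.6% higher without overlap.

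MAF (ENSG00000178573, chromosome 16, 79585843 to 79600714, GRCh38 by GENCODE 29, a protein-coding gene on the minus strand) had 1801, 1825 and 1802 CPM in the control libraries, 1615, 1326 and 1409 CPM at 40 µM and 1073, 1119 and 927 CPM at 80 µM. The 3 doses did not overlap, and the control libraries lay closer together than those at either dose. MAF fell at 80 µM, to 1039 ± 100 CPM, against 1809 ± 13.4 CPM in the control (SD, n = 3 each). The log2 fold change was -0.80 ± 0.11 (SE), with a 95% interval of -1.04 to -0.56 and an adjusted p of 0.00037 in edgeR. Since these are bulk libraries, fewer cells with MAF and less MAF RNA per cell cannot be told apart.

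CCND2 (ENSG00000118971, chromosome 12, 4273772 to 4305350, plus strand) encodes cyclin D2, which activates CDK4 and CDK6 in G1. It had 647, 642 and 626 CPM in the control libraries, 679, 650.1 and 683 CPM at 40 µM and 502, 548 and 549 CPM at 80 µM. The 80 µM libraries lay below all others, and the 40 µM libraries lay just above the control. CCND2 fell by 0.26 ± 0.08 on the log2 scale at 80 µM against the control (95% interval -0.45 to -0.07, adjusted p = 0.0351 in edgeR). This call lay near the threshold. Fits that left 1 library out called 4170 to 5775 genes in all, against 5574 with all 9 libraries. Their log2 fold change for CCND2 ran from -0.29 to -0.22, and 6 of the 9 fits lost the call. It ended without control replicate 1 or 2 (adjusted p = 0.116 and 0.0857), without 40 µM replicate 3 (0.0629) and without 80 µM replicate 1, 2 or 3 (0.111, 0.0889 and 0.0912), and with no filter on low counts (0.0631), all by the same edgeR test. Its antisense neighbour CCND2-AS1 had 9 to 24 counts a library and the overlapping AC008012.1 had 0 to 73.

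ITGB7 (ENSG00000139626, chromosome 12, 53191318 to 53207307, minus strand) encodes integrin beta7, the partner of integrin alpha4 in binding marrow stroma and mucosal vessels. Its libraries held 5718, 5745 and 7815 CPM in the control, 5442, 5047 and 5008 CPM at 40 µM and 3792, 3833 and 4069 CPM at 80 µM. Control replicate 3 lay far above the other control libraries, and the 3 doses still did not overlap. ITGB7 averaged 3898 ± 150 CPM at 80 µM and 6426 ± 1203 CPM in the control (SD, n = 3 each), a log2 fold change of -0.72 ± 0.13 (95% interval -1.01 to -0.44, adjusted p = 0.00179 in edgeR). Without control replicate 3 it was -0.58 (adjusted p = 0.00109 by the same test). ZNF740, a zinc finger gene chosen after its values were seen, shares 3824 bases with ITGB7 on the other strand and also fell at 80 µM, with 641, 678 and 682 CPM against 1131, 1003 and 1134 CPM in the control (log2 fold change -0.71 ± 0.15, adjusted p = 0.00501 in edgeR). No source used here states whether the counting used strand, so reads of both genes in the shared bases cannot be told apart.

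CCR1 (ENSG00000163823, chromosome 3, 46201709 to 46208396, minus strand) encodes a receptor for CCL3 and CCL5 that takes part in myeloma cell migration. It had 284, 296 and 332 CPM in the control libraries, 242, 251 and 235 CPM at 40 µM and 147, 136 and 128 CPM at 80 µM. Again no library of 1 dose reached into the range of another. CCR1 fell to 137 ± 9.33 CPM at 80 µM, against 304 ± 24.8 CPM in the control (SD, n = 3 each). Its log2 fold change of -1.15 ± 0.10 was the largest of the 5 (95% interval -1.36 to -0.93, adjusted p = 2.37e-05 in edgeR). CCR1 lies within the span of CCR3 on the other strand, and CCR3 had only 25 to 40 counts a library.

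NUAK1 (ENSG00000074590, chromosome 12, 106063340 to 106140033, minus strand) had 115, 121 and 139 CPM in the control libraries, 114, 119 and 117 CPM at 40 µM and 89.9, 97.6 and 95.8 CPM at 80 µM. The 80 µM libraries lay below all others, while those at 40 µM overlapped the control. NUAK1 fell by 0.40 ± 0.10 on the log2 scale at 80 µM against the control (95% interval -0.62 to -0.18, adjusted p = 0.0104 in edgeR).

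**Figure D2:**
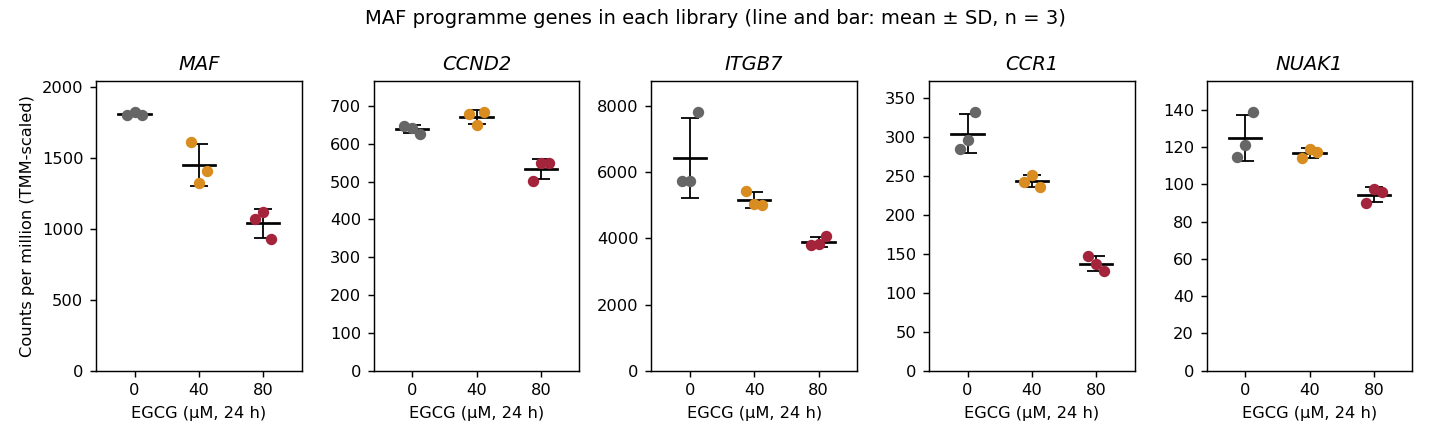
CPM of MAF, CCND2, ITGB7, CCR1 and NUAK1 in each library at 0, 40 and 80 µM EGCG, each axis starting at 0. Points are libraries, lines and bars are the mean ± SD of 3 libraries. The 80 µM points lie below all control points for each gene, for example CCR1 at 128 to 147 CPM against 284 to 332 CPM.

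The share of mitochondrially encoded counts was higher in each 80 µM library than in any control library, as the members were lower. Refitted without those genes, the log2 fold change at 80 µM was -0.79 for MAF, -0.25 for CCND2, -0.71 for ITGB7, -1.13 for CCR1 and -0.39 for NUAK1, and all 5 were called. The summed plasma cell markers also stood lower at 80 µM than in the control, with 2 of the 9 called higher, 3 lower and 4 not passing. Over all tested genes, 17.4% were called higher and 17.5% lower in this comparison. IRF4, the transcription factor on which myeloma cells depend, rose by 0.72 ± 0.09 on the log2 scale and the surface receptor SLAMF7 by 0.45 ± 0.08 (adjusted p = 0.00018 and 0.002 in edgeR). The immunoglobulin joining chain JCHAIN fell by 0.82 ± 0.13, the secretory cofactor MZB1 by 0.60 ± 0.14 and the surface enzyme CD38 by 0.40 ± 0.10. The part of these markers in the members' fall was not tested.

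Comparing 40 µM with the control asks whether the programme already responds to the lower dose. None of the 5 members passed the test, and the same count of 0 was found with DESeq2 and with limma-voom. Of all tested genes 2.3% were called, 0.813% lower and 1.49% higher. MAF had a log2 fold change of -0.32 ± 0.11 (95% interval -0.56 to -0.08, adjusted p = 0.145), ITGB7 of -0.32 ± 0.13 (adjusted p = 0.208) and CCR1 of -0.32 ± 0.10 (adjusted p = 0.111), in edgeR. These 3 had an unadjusted p under 0.05 (0.0136, 0.0331 and 0.00693, edgeR's test across all genes) and no overlap between the 40 µM and control libraries, where 11.5% of all tested genes were lower without overlap. NUAK1 stood at -0.10 ± 0.10 and CCND2 at 0.07 ± 0.08, with adjusted p of 0.615 and 0.663 by the same edgeR test. The CCND2 libraries at 40 µM all lay above the control, as 12.9% of all tested genes did. The comparisons at 40 µM and 80 µM share their control libraries. The log2 difference at 40 µM came to 39.9% of that at 80 µM for MAF, 43.7% for ITGB7, 28.2% for CCR1 and 23.8% for NUAK1.

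Comparing 80 µM with 40 µM asks whether the doses differ from each other. All 5 members were lower at 80 µM, where 23% of all tested genes were called, 12.1% lower and 10.9% higher. Each member was also lower without overlap, as were 21.5% of all tested genes, with 20.1% higher without overlap. On the log2 scale CCR1 fell by 0.82 ± 0.10 (adjusted p = 0.000555 in edgeR) and MAF by 0.48 ± 0.11 (adjusted p = 0.0105). CCND2 fell by 0.33 ± 0.08, ITGB7 by 0.41 ± 0.13 and NUAK1 by 0.31 ± 0.10 (adjusted p = 0.0183, 0.0443 and 0.049 by the same edgeR test).

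The count of 5 at 80 µM against 40 µM changed in some of the 9 fits that left 1 library out. CCR1 alone was called in each of those 9 fits. Calls over all genes also changed, to 2101 to 4059 in those fits, against 3674 with all 9 libraries. Without 80 µM replicate 3, 1147 genes were called higher and 1141 lower, against 1746 and 1928 with all 9 libraries. MAF missed the threshold without 80 µM replicate 3 (log2 fold change -0.39, adjusted p = 0.057), when 1 member was called. CCND2 missed it without 40 µM replicate 3 or 80 µM replicate 1, 2 or 3 (adjusted p = 0.0624, 0.0608, 0.0603 and 0.0603). ITGB7 missed it without control replicate 1 (0.0526), without 40 µM replicate 1, 2 or 3 (0.102, 0.0624 and 0.0806) and without 80 µM replicate 1, 2 or 3 (0.104, 0.133 and 0.0974). NUAK1 missed it without control replicate 1 or 2 (0.0733 and 0.0676), 40 µM replicate 1, 2 or 3 (0.0745, 0.099 and 0.121) and 80 µM replicate 1, 2 or 3 (0.128, 0.118 and 0.13). The number of members called was 3 without control replicate 1 or 40 µM replicate 1 or 2, and 2 without 40 µM replicate 3 or 80 µM replicate 1 or 2. The calls for CCR1 in those 9 fits had adjusted p of at most 0.00485.

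**Figure D3:**
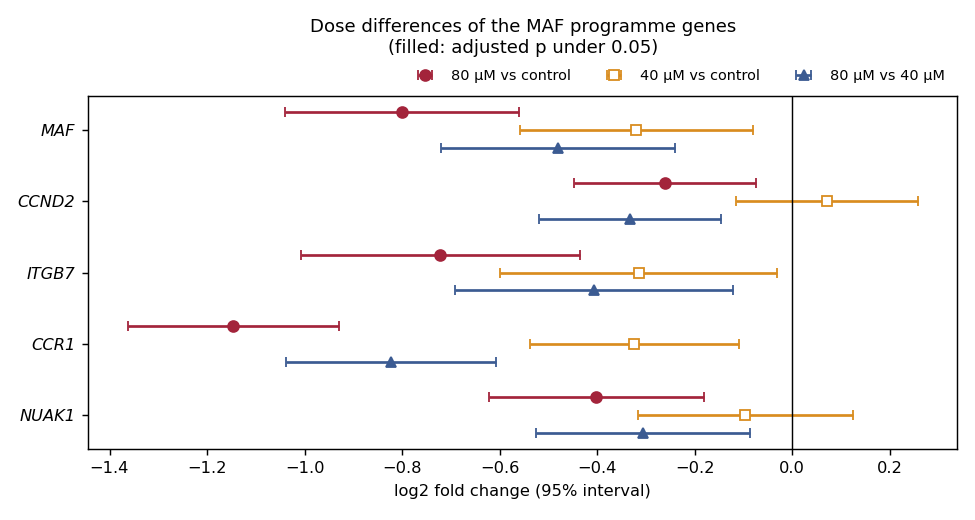
Log2 fold change of each member with its 95% interval for the 3 pairs of doses (80 µM and 40 µM each against the control, and 80 µM against 40 µM), from the edgeR fit of all 9 libraries. Filled symbols passed an adjusted p of 0.05: all 5 members at 80 µM against either group, and none at 40 µM against the control.

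The other 4 members were also set against MAF in the same library, as a description, since no test of these ratios passed. Such ratios do not depend on how libraries are scaled. The FPKM ratio of CCND2 to MAF was 0.339 to 0.429 at 80 µM and 0.252 to 0.260 in the control. That of NUAK1 to MAF was 0.109 to 0.134 at 80 µM and 0.0825 to 0.0997 in the control. The ratio of CCR1 to MAF ran the other way, with 0.473 to 0.538 at 80 µM and 0.612 to 0.714 in the control, the 40 µM libraries lying at 0.582 to 0.734. For these 3 ratios the 80 µM and control libraries did not overlap (two-sided exact permutation test p = 0.1 for each, the smallest that 3 against 3 allows, and 0.24 after adjustment over 12 tests). Since MAF itself was lower at 80 µM, most genes had a higher ratio to it. Of the 15981 other tested genes, 67.3% had a ratio to MAF that was higher without overlap at 80 µM than in the control, as CCND2 and NUAK1 did, and 2.14% had one that was lower, as CCR1 did. The higher ratios of CCND2 and NUAK1 are thus shared with most tested genes. The ratio of ITGB7 to MAF was 3.87 to 4.96 at 80 µM and 3.55 to 4.90 in the control, and these ranges overlapped (exact permutation p = 0.5, adjusted 0.667). At 40 µM the CCND2 ratio was 0.304 to 0.355 against 0.252 to 0.260 in the control (exact p = 0.1, adjusted 0.24), and the other 3 ratios overlapped the control. At that dose 35.2% of the other tested genes had a ratio to MAF that was higher without overlap and 2.35% a lower one.

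**Figure D4:**
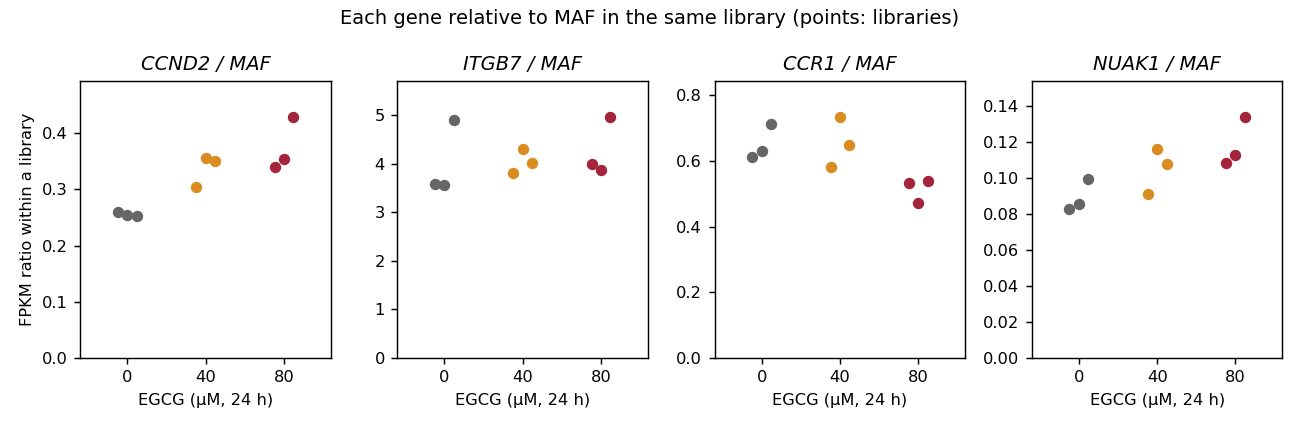
FPKM of CCND2, ITGB7, CCR1 and NUAK1 divided by the FPKM of MAF in the same library, at 0, 40 and 80 µM EGCG, 1 point per library, each axis starting at 0. The ratios of CCND2 and NUAK1 lie higher at 80 µM than in the control, as for 67.3% of other tested genes, that of CCR1 lies lower and that of ITGB7 overlaps.

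Other genes described as high in MAF-translocated myeloma were 6, of which 4 passed the filter. At 80 µM 2 fell and 2 did not pass (median log2 fold change -0.45, against -0.0013 over all tested genes). For this list and those below, 17.5% of all tested genes were called lower at 80 µM and 17.4% higher. No list was tested against these shares. DEPTOR, an inhibitor of mTOR kinase on which this myeloma class relies, averaged 107 ± 6.14 CPM at 80 µM and 153 ± 6.24 CPM in the control (log2 fold change -0.52 ± 0.10, adjusted p = 0.00256 in edgeR). The fractalkine receptor CX3CR1 averaged 15.4 ± 1.3 and 25.8 ± 1.74 CPM at 80 µM and in the control (-0.74 ± 0.13, adjusted p = 0.00167). The small GTPase RND3 stood at 0.48 ± 0.19 and the neurotrophin receptor NTRK2 at -0.38 ± 0.27, neither passing. SPP1, which encodes osteopontin, and SMARCA1, a chromatin remodeller, held 0 to 5 counts a library. None of the 4 tested genes passed at 40 µM. Between 80 µM and 40 µM, DEPTOR and CX3CR1 fell by 0.32 ± 0.10 and 0.52 ± 0.13 (adjusted p = 0.0413 and 0.0173).

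In the MAF family, MAF and the small factor MAFG fell at 80 µM and the small factor MAFF rose. MAFG, which pairs with NRF2 or BACH1 on antioxidant elements, averaged 54.2 ± 4.12 CPM at 80 µM and 108 ± 6.77 CPM in the control (log2 fold change -0.996 ± 0.144, adjusted p = 0.000532 in edgeR). MAFF, which is induced by stress, averaged 25.4 ± 9.59 and 8.14 ± 3.63 CPM at 80 µM and in the control (1.63 ± 0.36, adjusted p = 0.00573). The remaining small factor, MAFK, was uneven, with 407, 173 and 465 counts at 80 µM and 888, 232 and 788 in the control libraries, and did not pass (-0.83 ± 0.52). The retinal factor NRL stayed under 3 CPM and did not pass, and MAFA held 0 to 5 counts a library. None of MAF, MAFF, MAFG, MAFK and NRL passed at 40 µM.

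The MEK to ERK to FOS route and the methyltransferase NSD2 have been described as inputs to MAF transcription in myeloma. Of these genes FOS and MAPK3 fell and MAP2K1 rose at 80 µM, and FOS alone fell at 40 µM. FOS, an AP-1 subunit, averaged 38.1 ± 1.46 CPM in the control, 6.38 ± 1.07 CPM at 40 µM and 10.2 ± 3.02 CPM at 80 µM (SD, n = 3 each). Its log2 fold change was -1.90 ± 0.21 at 80 µM and -2.57 ± 0.21 at 40 µM (adjusted p = 0.000103 and 0.000268 in edgeR). FOS was higher at 80 µM than at 40 µM (0.67 ± 0.21, adjusted p = 0.045 in edgeR), though the FOS libraries of the 2 doses overlapped. A link between FOS and the level of MAF was not tested. The ERK1 gene MAPK3 fell by 0.52 ± 0.15 at 80 µM and the MEK1 gene MAP2K1 rose by 0.29 ± 0.09. NSD2 stood at -0.11 ± 0.08 and did not pass.

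Genes that control the stability of MAF protein gave 2 falls among 7 at 80 µM, none at 40 µM and a median log2 fold change of -0.09 at 80 µM. Of all tested genes, 17.5% were called lower at 80 µM, so so few calls do not set this list apart. The deubiquitinases USP5 and USP7, both described to stabilise MAF, fell by 0.34 ± 0.11 and 0.35 ± 0.12 (adjusted p = 0.0322 and 0.0391 in edgeR), and the libraries of USP7 overlapped. OTUB1, another such deubiquitinase, stood at -0.50 ± 0.24 at 80 µM and -0.93 ± 0.25 at 40 µM without passing (adjusted p = 0.137 and 0.0804). The kinases GSK3A and GSK3B and the ubiquitin ligases HERC4 and UBE2O lay between -0.09 and 0.17 on the log2 scale at 80 µM. MAF protein was not measured.

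Around cyclin D2, 3 of 8 tested genes of the D-type cyclin axis rose at 80 µM and 2 fell. The cell cycle inhibitor CDKN1A (p21) averaged 266 ± 130 CPM at 80 µM and 30.9 ± 0.813 CPM in the control (SD, n = 3 each). It was the 1 member of this list that passed at 40 µM, at 100 ± 12.8 CPM. Its 80 µM libraries were uneven, at 354, 327 and 117 CPM, beside 86.9 to 112 CPM at 40 µM. CDK6, a kinase that cyclin D2 activates, rose by 0.60 ± 0.17 while the related CDK4 fell by 0.43 ± 0.12 (adjusted p = 0.0226 and 0.021 in edgeR). RB1, the pocket protein those kinases inactivate, rose by 0.63 ± 0.18, and E2F1, the factor it restrains, fell to 101 ± 5.50 CPM at 80 µM against 202 ± 17.3 CPM in the control. CDKN2C, an inhibitor of CDK4 and CDK6, had a count of 0 in all 9 libraries.

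Of the 8 integrin beta7 partners, activators and ligands 5 were tested, and at 80 µM ITGA4 fell, TLN1 rose and the other 3 missed the threshold. ITGA4, the alpha subunit that pairs with beta7, averaged 112 ± 11.4 CPM at 80 µM and 162 ± 23.6 CPM in the control (log2 fold change -0.53 ± 0.13, adjusted p = 0.00866 in edgeR). ITGAE, its other alpha partner, stood at -0.42 ± 0.19 (adjusted p = 0.101), and talin, TLN1, which activates integrins, rose by 0.39 ± 0.11. Fibronectin, FN1, a matrix ligand, stood at -0.36 ± 0.15 (adjusted p = 0.0924). The ligand VCAM1 had no count in any library, and MADCAM1 and CDH1 held 0 to 10 counts.

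Among the CCR1 ligands and like receptors, CCR2 fell and CCL3 rose at 80 µM. CCR2, a receptor encoded 145338 bases from CCR1 on chromosome 3, fell to 8.93 ± 0.588 CPM at 80 µM, against 18.1 ± 0.880 CPM in the control (log2 fold change -1.02 ± 0.13, adjusted p = 0.000206 in edgeR). CCR3, which overlaps CCR1, stood at -0.20 ± 0.24 and did not pass. Further genes within 250 kb, chosen after their values were seen, were XCR1, a receptor at -0.24 ± 0.12 (adjusted p = 0.145), CCRL2, a decoy receptor at -0.80 ± 0.33 (0.0846), and FYCO1, an autophagy adaptor at 0.13 ± 0.22 (0.67). The ligand CCL3, which myeloma cells secrete, averaged 11.4 ± 1.46 CPM at 80 µM and 5.81 ± 0.536 CPM in the control, a rise of 0.97 ± 0.25 on the log2 scale (adjusted p = 0.0132). The ligand CCL5 stood at 0.34 ± 0.36 without passing, and CCL15 and CCL23 had no count in any library.

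In the NUAK1 kinase axis 1 of 7 genes was called higher at 80 µM, 1 lower, and 5 were not called. Of all tested genes, 34.9% were called in either direction. NUAK2, the closest relative of NUAK1, averaged 17.2 ± 0.923 CPM at 80 µM and 11.1 ± 0.539 CPM in the control (log2 fold change 0.63 ± 0.12, adjusted p = 0.00289 in edgeR), opposite to NUAK1. AKT1, a kinase described to activate NUAK1, averaged 41.2 ± 6.34 and 63.6 ± 10.6 CPM at 80 µM and in the control (-0.63 ± 0.16, adjusted p = 0.0115). STK11, the upstream kinase LKB1, stood at -0.27 ± 0.14, and PPP1R12A, a myosin phosphatase subunit that NUAK1 phosphorylates, at 0.31 ± 0.12, neither passing.

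APOBEC3 cytidine deaminases, whose mutational signature marks MAF-translocated myeloma, gave 2 rises among 7 genes at 80 µM, with no member passing at 40 µM. Of all tested genes, 17.4% were called higher at 80 µM. APOBEC3H averaged 19.5 ± 2.64 CPM at 80 µM and 6.08 ± 1.44 CPM in the control (log2 fold change 1.68 ± 0.19, adjusted p = 0.000108 in edgeR), and APOBEC3F rose by 0.35 ± 0.10. APOBEC3B stood at 0.30 ± 0.19 and APOBEC3A at -0.21 ± 0.29, neither passing. The genes of this family are near copies of each other, so the split of reads between them is uncertain.

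**Figure D5:**
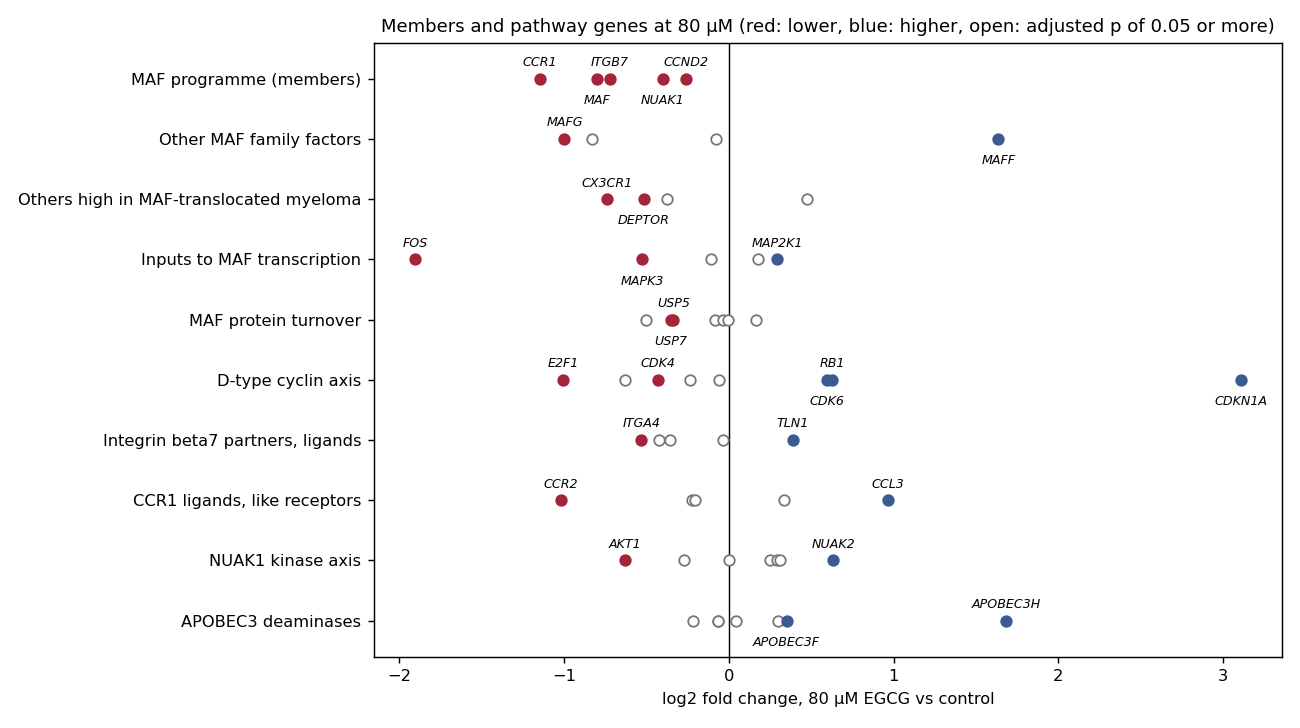
Log2 fold change at 80 µM against the control of the 5 members (top row) and of the tested genes reported from 9 further lists, 1 point per gene. Red points were called lower, blue points higher, and open points did not pass an adjusted p of 0.05. All 5 members lie left of 0, from CCR1 at -1.15 to CCND2 at -0.26.

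Within 500 kb of MAF, the table held 17 further genes, of which 5 had no count in any library. WWOX had the highest sum of these over 3 libraries, with 144 control counts, 152 at 40 µM and 128 at 80 µM, and did not pass the test (-0.20 ± 0.22 at 80 µM, adjusted p = 0.513 in edgeR). LINC01229, a noncoding RNA gene chosen after its values were seen, had 28, 27 and 22 counts at 80 µM against 6, 6 and 9 counts in the control. It rose where MAF fell, by 1.83 ± 0.33 in log2 (adjusted p = 0.00188 by the same test). Its counts at 40 µM were 10, 9 and 6.

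By profile over the 9 libraries, the gene most like MAF among 10464 genes of at least 5 CPM was POLR3E, a subunit of RNA polymerase III. The root mean square difference from MAF in log2(CPM + 1), each gene centred on its control mean, was 0.0458. TMCC2 and the mitochondrial ribosomal protein gene MRPL27 followed, at 0.0648 and 0.0877. For CCR1 the nearest were ALDH18A1, an enzyme of proline synthesis, the replication factor GINS2 and the nucleoside transporter SLC29A1 (0.0844, 0.0863 and 0.0872). For ITGB7 the noncoding DANCR and the histone H2AX were among the nearest (0.0575 and 0.0641). The nearest were for NUAK1 UBAP2L, VOPP1 and MTMR1 (0.0358, 0.0399 and 0.0468), and for CCND2 PKP4, SDHAP3 and TAF5L (0.0309, 0.0559 and 0.058). No member was among the genes nearest to another, because members were left out of the search.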

How the data were processed

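RNA from 9 MM.1S libraries was sequenced. Per the file headers, the deposited table gives 2 values for each gene in each library, a whole-number count without normalization and an FPKM. The authors' FPKM values equal the count divided by the library total and by 1 fixed length per gene, which was checked for the 5 members. HISAT2, edgeR, CASAVA 1.8, SAMtools 1.3.1 and the build GRCh38 appear in the submitters' processing notes, without roles. Not given in the sources used here are the counting program, its annotation release and its use of strand.

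The members, gene lists and tests were chosen with earlier results of these data known. Symbols came from a table of gene names that matched 60419 of 60675 IDs, and positions from GENCODE 29, which holds 58444 of them. Genes were filtered with filterByExpr, libraries were scaled by TMM (factors 0.945 to 1.031), and all 9 libraries were fitted with dose as the single factor in edgeR 4.0.16 (R 4.3.3) by the quasi-likelihood test, with 6 residual degrees of freedom. Standard errors follow from each log2 fold change and its F statistic. The steps were tested on simulated data.

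Named genes were the 5 members, and from each list the genes called in either comparison with the control, the 4 with the smallest p at 80 µM and low members. Some genes that this rule names are not reported here. Replicates differed by 11.28 to 29.41 times counting noise by chi-square, so none was a copy. A floor of 3 counts corresponds to 0.183 to 0.237 CPM and covers counting error only. Alternatives were DESeq2 1.42.0, limma-voom (limma 3.58.1), 2 other scalings, 2 other filters, the 6 libraries compared, a replicate block, no mitochondrially encoded genes, and each library left out in turn.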

Additional observations from a re-analysis of the deposited data

How the results depend on the processing

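MAF, ITGB7, CCR1 and NUAK1 at 80 µM against the control kept their direction and their call in all 18 alternatives, and no member passed at 40 µM in any of them. Leaving out 1 library at a time gave log2 fold changes at 80 µM of -0.84 to -0.71 for MAF, -0.79 to -0.58 for ITGB7, -1.20 to -1.08 for CCR1 and -0.45 to -0.34 for NUAK1. CCND2 at 80 µM against the control ran from -0.29 to -0.22 when 1 library was left out, and missed the threshold with no filter (-0.28) and with a replicate block (-0.26, adjusted p = 0.0778 by edgeR).

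Between 80 µM and 40 µM no direction changed. ITGB7 missed the threshold with upper-quartile scaling (-0.37) and the replicate block (-0.41). NUAK1 missed it with DESeq2 (-0.29), median-ratio scaling (-0.29), upper-quartile scaling (-0.27), no filter (-0.32), the replicate block (-0.31) and no mitochondrially encoded genes (-0.29). The number of members called was 3 with upper-quartile scaling, 3 with the replicate block and 1 to 5 when 1 library was left out. Over those 9 fits MAF ran from -0.54 to -0.39, CCND2 from -0.35 to -0.30, ITGB7 from -0.43 to -0.37 and NUAK1 from -0.33 to -0.28.

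Over all genes, 368 were called at 40 µM against the control, against 859 with DESeq2, 228 with no filter, 153 with the 6 libraries compared, 183 with the replicate block and 136 to 469 when 1 library was left out. Between the doses 3674 were called, and 2101 to 4059 when 1 library was left out. The cause of these shifts was not tested. No pairing of libraries by replicate number was detected. Same-numbered libraries had correlations of deviations from -0.151 to 0.074, with 0 of 9 pairs over 0.1. A library correlated best with its own number in 5 of 18 checks. Weak correlations cannot show whether the libraries were prepared in matched sets. Depth did not limit the members, each with at least 1209 counts a library, but it limits MAFA, SPP1, SMARCA1 and the noncoding genes near MAF.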
